A study of Homo sapiens with 12 samples.

Results

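The genes described here were 10 of the 19775 genes with a probe set of their own on the arrays: JAKMIP2, MB, RASD2, SERPINI1, KCNQ5, NREP, ATL1, ATP9A, ZNF117 and GPR18. They were chosen by the expression values themselves, for a more positive response to TPA in U937_EVI1 cells than in U937_vec cells or for higher values after TPA in U937_EVI1 cells. Each gene was represented by the brightest, on average over all arrays, of its probe sets that name 1 gene, and its other probe sets served as a check. U937 is a human myelomonocytic leukaemia line, and all cells studied derive from it. The U937_vec cells had been transduced with the empty vector and the U937_EVI1 cells with a vector for EVI1, the zinc finger transcription factor that the gene MECOM encodes, which is linked to myeloid leukaemia. Both populations were exposed for 24 h to TPA at 50 ng/ml, a phorbol ester and activator of protein kinase C, or to ethanol, its solvent. This gave 4 groups of 3 arrays, each made from 250 ng of total RNA. The groups are called vec EtOH, vec TPA, EVI1 EtOH and EVI1 TPA.

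All 4 groups share the cell line and a transduction, and they are bulk RNA, so more expressing cells and more RNA per cell cannot be told apart. The design text describes 3 biological replicates without saying whether they were transduced separately, so p-values measure the spread between these cultures. The EVI1 transcript was not visible, since the 5 probe sets for MECOM read between 2.59 and 3.32 on every array, and the names of the populations are therefore those of the labels. Values are log2 RMA expression values, a scale on which a difference of 1 is a doubling, and differences carry the standard error (SE) of the fit. A group mean below 5.07, the lowest median of any array, is not shown to be above background, a level chosen after the data were seen. This applied to 5 of the 10 genes in at least 1 group, and to none of them in EVI1 TPA. Differences that start or end below that level have an uncertain size.

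Phorbol esters stop the division of U937 cells and move them toward an adherent, macrophage-like state, and EVI1 is known to alter how myeloid cells mature. The 10 genes have no common pathway. Several are best known outside blood: MB encodes myoglobin, the oxygen-storing heme protein of muscle, RASD2 a RAS-like GTPase of the striatum, SERPINI1 the neuronal protease inhibitor neuroserpin, NREP a small protein of regenerating neurons and fibroblasts, and KCNQ5 a voltage-gated potassium channel subunit of neurons and smooth muscle. JAKMIP2 encodes a coiled-coil protein related to a partner of Janus kinases and microtubules, ATL1 a GTPase that fuses endoplasmic reticulum tubules, ATP9A a member of the lipid-flipping P4-ATPases that sits on endosomes, ZNF117 a zinc finger protein, and GPR18 a G protein-coupled receptor of leukocytes.

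Promoter sequences are shown for JAKMIP2, which had the largest value of the 10 after TPA relative to empty vector cells, for MB and RASD2, which are next to each other on chromosome 22 and differed in the same direction, and for GPR18, the gene whose TPA responses had opposite signs in the 2 populations. They come from RefSeq on GRCh38.p14 and run 5′ to 3′ on the gene's strand, from 250 bases before an annotated start to 50 bases after it. Capitals mark a match to a searched motif, which is the CCAAT box, on either strand, in JAKMIP2 and MB, and in GPR18 the GATA-like motif AGATAA, on either strand. RASD2 had no match. The windows are chr5:147782679-147782978 on the minus strand for JAKMIP2, chr22:35622480-35622779 on the minus strand for MB, chr22:35532556-35532855 on the plus strand for RASD2 and chr13:99258330-99258629 on the minus strand for GPR18. MB has 3 annotated starts, and the second is shown.
JAKMIP2: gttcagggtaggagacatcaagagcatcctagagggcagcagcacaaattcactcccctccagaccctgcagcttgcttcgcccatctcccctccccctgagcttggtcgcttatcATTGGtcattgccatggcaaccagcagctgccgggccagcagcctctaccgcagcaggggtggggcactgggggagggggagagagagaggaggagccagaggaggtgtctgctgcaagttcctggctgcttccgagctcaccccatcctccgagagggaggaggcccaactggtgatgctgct
MB: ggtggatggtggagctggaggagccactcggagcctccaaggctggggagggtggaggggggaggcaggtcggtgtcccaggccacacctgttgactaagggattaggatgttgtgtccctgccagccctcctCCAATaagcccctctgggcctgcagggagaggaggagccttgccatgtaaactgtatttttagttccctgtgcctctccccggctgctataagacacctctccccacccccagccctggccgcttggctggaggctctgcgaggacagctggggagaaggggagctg
RASD2: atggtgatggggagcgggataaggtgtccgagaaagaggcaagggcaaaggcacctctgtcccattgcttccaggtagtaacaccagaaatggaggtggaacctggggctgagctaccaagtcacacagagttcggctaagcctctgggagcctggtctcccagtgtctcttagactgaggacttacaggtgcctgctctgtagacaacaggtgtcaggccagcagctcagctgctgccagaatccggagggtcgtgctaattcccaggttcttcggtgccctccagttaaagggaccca
GPR18: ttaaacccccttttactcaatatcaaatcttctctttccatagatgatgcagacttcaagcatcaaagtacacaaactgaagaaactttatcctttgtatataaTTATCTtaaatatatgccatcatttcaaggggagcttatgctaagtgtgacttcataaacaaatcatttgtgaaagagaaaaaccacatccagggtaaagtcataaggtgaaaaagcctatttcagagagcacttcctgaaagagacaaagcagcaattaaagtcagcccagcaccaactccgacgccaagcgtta

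The 10 genes had 18 such windows, all of 300 bases. No window held TGACTCA or TGAGTCA, the AP-1 motif on either strand, which occurs in 4.95% of 35116 promoter windows. These windows, called all windows below, leave out the genes of 1 chromosome that holds no member. None of the 18 held CACGTG, an E-box found in 7.26%. AGATAA or its reverse complement was present in 1 window, that of GPR18, against 10.3% of all windows. CCAAT on either strand occurred in 6 of the 18 windows, belonging to JAKMIP2, MB, KCNQ5, NREP and ZNF117, a share near the 34.6% of all windows, and the TATA box TATAAA, on either strand, in 1 window of NREP, against 11.5%. The motifs do not overlap one another. Base composition differed widely among the members: the ATP9A window was 86.3% G and C with 65 CpG dinucleotides, the KCNQ5 window 65.7% with 24, the JAKMIP2 window 62.0% with 6, the ZNF117 window 42.3% with 2 and the GPR18 window 37.0% with 3. The medians of all windows were 58.7% and 14. A match is a run of letters and not a bound site, and a missing match says only that these letters are not in this window.

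After TPA all 10 genes were higher in EVI1 vector cells than in empty vector cells, by 1.13 (SERPINI1) to 4.24 (JAKMIP2), and the 3 arrays of one population lay above the 3 of the other for every gene. This is the choice of the genes and no result, and the share of all genes whose arrays separate in this way was not counted. By the fit's threshold, an adjusted p of 0.05 over all genes in limma, all 10 were called higher and none lower, where 5.9% of all genes were called higher and 5.3% lower. For the difference between the TPA responses of the populations, 7 were called higher in EVI1 vector cells and none lower, against 0.936% and 1.05% of all genes. JAKMIP2, MB, RASD2, SERPINI1, KCNQ5, NREP and ATL1 were the 7, with differences of 1.08 to 2.94. ATP9A, ZNF117 and GPR18 were not, at 0.36 ± 0.36, 0.49 ± 0.30 and 1.10 ± 0.43. The value of GPR18 was near the 1.08 of ATL1, with a larger SE. Higher values of these genes after TPA stood beside higher values in ethanol, as they also did for JAKMIP2 and ATL1.

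In ethanol alone 5 of the 10 (ZNF117, ATP9A, JAKMIP2, GPR18 and ATL1) were called higher in EVI1 vector cells and none lower, where 1.32% of all genes were called higher and 1.95% lower. TPA against ethanol was called higher for 6 and lower for 2 in empty vector cells (20.7% and 22.5% of all genes), and higher for 7 and lower for 2 in EVI1 vector cells (19.4% and 20.6%). Each of these comparisons enters the difference in response that chose the genes, so the counts are descriptions. The name under which the genes were grouped, a TPA gain favouring EVI1 cells, does not hold for KCNQ5 and NREP, which were lower with TPA in both populations. Nor is it shown for GPR18, which had no called TPA response in either population. For ATP9A and ZNF117, read from their brightest probe sets, TPA gains were called in both populations but their difference was not.

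With 4 groups of equal size, the error of the TPA effect averaged over both populations is uncorrelated with the comparisons behind the choice. The effect itself is not independent of the choice, since it is made from the same TPA arrays. By this measure 7 of the 10 rose with TPA (JAKMIP2, MB, RASD2, SERPINI1, ATL1, ATP9A and ZNF117), where 23.6% of all genes rose, 2 fell (KCNQ5 and NREP), where 24.4% of all genes fell, and GPR18 passed in neither direction. The median of the 10 was 1.76, against 0.01 over all genes. For JAKMIP2, RASD2 and ATL1 most of the averaged rise came from EVI1 vector cells. Their responses were 3.50, 2.68 and 1.44 there, against 0.56, 0.46 and 0.36 in empty vector cells. The counts and the median are therefore descriptions of chosen genes. The averaged effects ran from 4.72 ± 0.19 for SERPINI1 (adjusted p = 4.43e-11, limma) and 4.61 ± 0.23 for MB (adjusted p = 4.06e-10, limma) down to -2.94 ± 0.14 for KCNQ5 (adjusted p = 1.93e-10, limma).

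**Figure D1:**
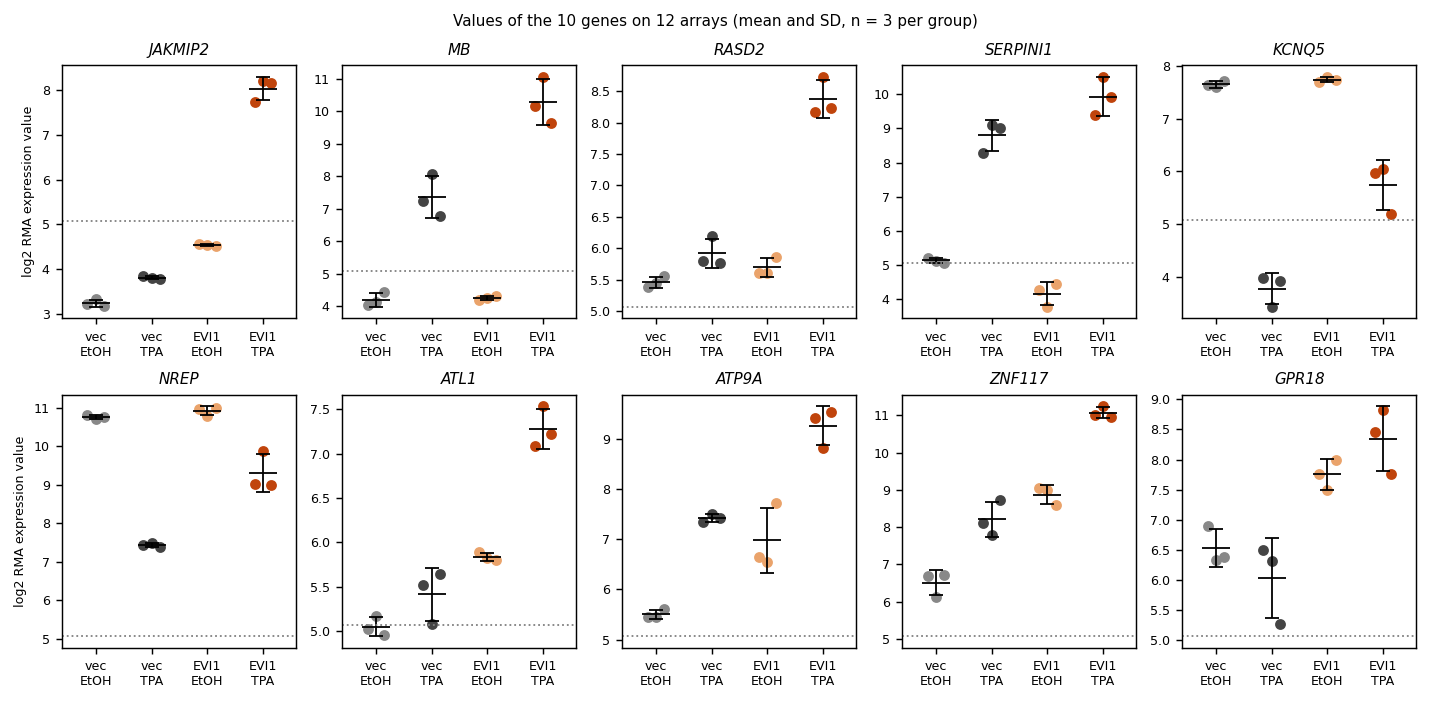
Log2 RMA value of each of the 10 genes on the 12 arrays, 1 panel per gene with its own vertical scale; points are arrays, bars the mean and SD of 3 arrays, and the dotted line 5.07, the lowest array median. In every panel the 3 EVI1 TPA arrays lie above the 3 vec TPA arrays, values of the kind the genes were chosen by. MB and SERPINI1 are higher with TPA in both populations and KCNQ5 and NREP lower in both.

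JAKMIP2, RASD2 and ATL1 had a TPA response that was small in empty vector cells and large in EVI1 vector cells. JAKMIP2 read 3.21, 3.33 and 3.18 in vec EtOH and 3.84, 3.80 and 3.77 in vec TPA. It read 4.56, 4.54 and 4.51 in EVI1 EtOH and 7.74, 8.21 and 8.17 in EVI1 TPA. The 4 groups did not overlap one another, and the EVI1 TPA arrays were the ones above the background level of 5.07. The response was 0.56 ± 0.11 in empty vector cells and 3.50 ± 0.11 in EVI1 vector cells, the latter a nominal 11.3-fold from a level not shown above background. Among 19775 genes, ordered by signed value, JAKMIP2 ranked 1st for the value after TPA relative to empty vector cells and 2nd for the difference in response. Its averaged TPA effect was 2.03 ± 0.08 (adjusted p = 2.74e-11, limma).

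RASD2, the GTPase also called Rhes, read 5.38, 5.44 and 5.55 in vec EtOH and 5.80, 6.19 and 5.76 in vec TPA. The EVI1 vector cells gave 5.61, 5.61 and 5.86 in ethanol and 8.17, 8.73 and 8.23 after TPA. One group stood apart from the others here: the EVI1 TPA arrays lay above 8, and the other 9 arrays between 5.38 and 6.19. The response was 0.46 ± 0.15 in empty vector cells and 2.68 ± 0.15 in EVI1 vector cells, and the averaged effect 1.57 ± 0.11 (adjusted p = 1.06e-08, limma). The smaller of these responses was no longer called without vec EtOH replicate 1 (0.42), vec EtOH replicate 2 (0.45) or vec TPA replicate 2 (0.32).

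ATL1 read 5.03, 5.17 and 4.96 in vec EtOH and 5.52, 5.08 and 5.65 in vec TPA, and these groups overlapped. It read 5.89, 5.83 and 5.80 in EVI1 EtOH, above all empty vector arrays, and 7.09, 7.53 and 7.22 in EVI1 TPA. The response in EVI1 vector cells was 1.44 ± 0.14, 2.71-fold, and that in empty vector cells 0.36 ± 0.14. Atlastin 1 RNA thus had a difference between the populations of 0.79 ± 0.14 before TPA and 1.86 ± 0.14 after it. Averaged over the populations, TPA raised ATL1 by 0.90 ± 0.10 (adjusted p = 2.14e-06, limma).

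MB and SERPINI1 were higher with TPA in both populations, and by more in EVI1 vector cells. MB read 4.03, 4.13 and 4.44 in vec EtOH and 4.18, 4.24 and 4.30 in EVI1 EtOH, overlapping groups below the background level. After TPA it read 7.25, 8.07 and 6.78 in empty vector cells and 10.16, 11.06 and 9.65 in EVI1 vector cells. In each population TPA replicate 2 was the highest array and replicate 3 the lowest. The response was 3.17 ± 0.32 in empty vector cells and 6.05 ± 0.32 in EVI1 vector cells, nominally 8.98-fold and 66.3-fold. The level in EVI1 TPA was 10.29 ± 0.71 (SD, n = 3). The difference in response was 2.88 ± 0.46 and ranged from 2.50 without EVI1 TPA replicate 2 to 3.24 without vec TPA replicate 2.

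SERPINI1 had the largest averaged TPA effect of the 10, and it was the 1 member with lower values in EVI1 vector cells before TPA. In ethanol it read 5.21, 5.13 and 5.06 in empty vector cells and 4.26, 3.78 and 4.45 in EVI1 vector cells, groups that did not overlap and that differed by -0.97 ± 0.27. This difference was not called in the main fit (adjusted p = 0.0723, limma), and it was called in 3 of 18 alternatives. After TPA the order was reversed, with 8.27, 9.11 and 9.02 in empty vector cells and 9.38, 10.51 and 9.91 in EVI1 vector cells. The responses were 3.67 ± 0.27 and 5.77 ± 0.27. The difference in response, 2.10 ± 0.38, holds both the higher end and the lower start, and the start in EVI1 vector cells lay below the background level. The value after TPA relative to empty vector cells, 1.13 ± 0.27, was the smallest of the 10, and it was no longer called without vec TPA replicate 1 (0.87) or EVI1 TPA replicate 2 (0.84).

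KCNQ5 and NREP were lower with TPA in both populations, and by less in EVI1 vector cells. KCNQ5 read 7.64, 7.59 and 7.72 in vec EtOH and 7.69, 7.79 and 7.74 in EVI1 EtOH, which overlapped. With TPA it read 3.97, 3.43 and 3.92 in empty vector cells and 5.97, 6.05 and 5.19 in EVI1 vector cells. Only the empty vector cells reached values below the background level, where the size of a fall is uncertain. The response was -3.88 ± 0.19 in empty vector cells and -2.00 ± 0.19 in EVI1 vector cells.

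NREP, also known as P311, had nearly the same values in both populations in ethanol. It read 10.81, 10.70 and 10.76 in vec EtOH and 10.97, 10.78 and 10.99 in EVI1 EtOH. After TPA the values were 7.44, 7.48 and 7.39 in empty vector cells and 9.02, 9.87 and 9.00 in EVI1 vector cells. All 12 arrays were above the background level, and the 2 TPA groups did not overlap. The response was -3.32 ± 0.18 in empty vector cells, 9.99-fold lower, and -1.62 ± 0.18 in EVI1 vector cells, 3.07-fold lower. Averaged over the populations NREP fell by 2.47 ± 0.12 (adjusted p = 5.05e-10, limma).

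ATP9A, ZNF117 and GPR18 were higher in EVI1 vector cells in both treatments. ATP9A read 5.45, 5.45 and 5.61 in vec EtOH and 7.34, 7.51 and 7.43 in vec TPA. Its values were 6.65, 6.55 and 7.73 in EVI1 EtOH and 9.42, 8.82 and 9.54 in EVI1 TPA. Replicate 3 of EVI1 EtOH stood above the other arrays of its group, and the groups did not overlap between the populations in either treatment. The responses were 1.92 ± 0.25 in empty vector cells and 2.28 ± 0.25 in EVI1 vector cells, with an averaged rise of 2.10 ± 0.18 (adjusted p = 1.36e-07, limma). Without EVI1 EtOH replicate 3 the difference between the populations in ethanol moved from 1.47 to 1.10 and the difference in response from 0.36 to 0.74.

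ZNF117, read from its brightest probe set, had the largest positive difference between the populations in ethanol of all 19775 genes, 2.37 ± 0.22. Its other probe sets gave smaller differences in ethanol, 1.50 ± 0.19, 1.69 ± 0.19 and 1.51 ± 0.18. By the brightest probe set ZNF117 read 6.69, 6.12 and 6.71 in vec EtOH and 9.05, 8.99 and 8.58 in EVI1 EtOH. After TPA it read 8.11, 7.80 and 8.72 in empty vector cells and 11.02, 11.24 and 10.95 in EVI1 vector cells. Its lowest EVI1 EtOH array, 8.58, was below the highest vec TPA array, 8.72, and all other pairs of groups were separate. The TPA response was 1.70 ± 0.22 in empty vector cells and 2.20 ± 0.22 in EVI1 vector cells, and the averaged rise was 1.95 ± 0.15 (adjusted p = 5.51e-08, limma).

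GPR18 had the widest spread relative to its TPA response. Empty vector cells gave 6.90, 6.33 and 6.38 in ethanol and 6.50, 6.32 and 5.27 after TPA. The EVI1 vector cells gave 7.76, 7.50 and 8.00 in ethanol and 8.45, 8.82 and 7.76 after TPA. Ethanol and TPA arrays overlapped in both populations, and replicate 3 was the lowest TPA array in both. The responses were -0.51 ± 0.31 and 0.59 ± 0.31, neither called, and the averaged effect was 0.04 ± 0.22 (adjusted p = 0.9, limma). Single arrays moved these values: without vec TPA replicate 3 the response in empty vector cells was -0.13 and the difference in response 0.72 in place of 1.10, and without EVI1 TPA replicate 3 the response in EVI1 vector cells was 0.88 and was called. Values of GPR18 were higher in EVI1 vector cells by 1.22 ± 0.31 in ethanol and 2.31 ± 0.31 after TPA. The first of these was called in 8 of 18 alternative analyses.

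Over the 10 genes, replicate 2 was the highest of the 3 EVI1 TPA arrays for 9, with ATP9A as the exception, and the highest of the 3 vec TPA arrays for 5. The members did not share 1 pattern over the 12 arrays. JAKMIP2 and ATL1 correlated at r = 0.983, KCNQ5 and NREP at 0.987, and MB and SERPINI1 at 0.945, while SERPINI1 and KCNQ5 correlated at -0.802 and SERPINI1 and GPR18 at 0.098. These are descriptions over 12 arrays that share the same 4 groups.

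**Figure D2:**
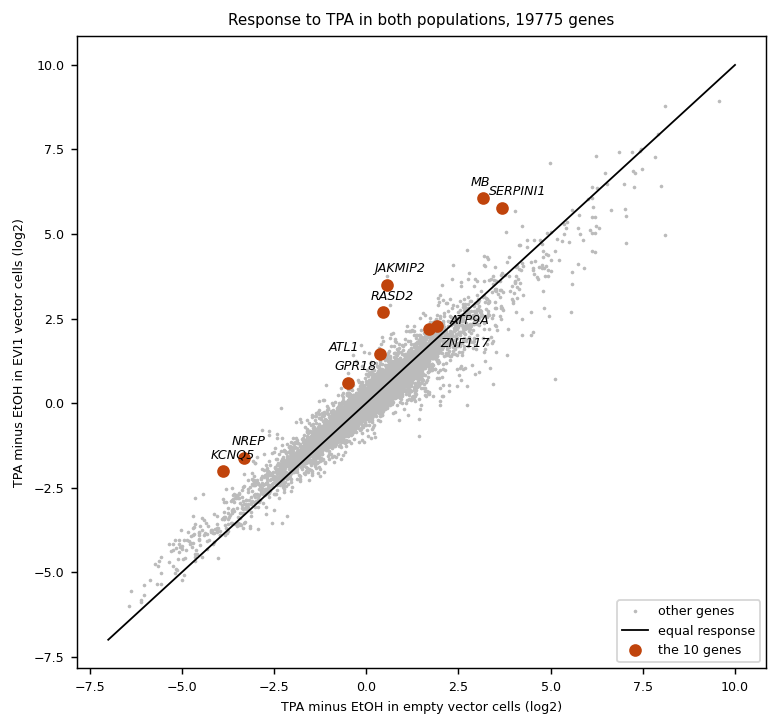
TPA minus ethanol in empty vector cells (horizontal, log2) against TPA minus ethanol in EVI1 vector cells (vertical, log2) for 19775 genes; grey points are other genes, red points the 10 genes, and the line marks equal responses. All 10 lie above the line, by a comparison that was part of the choice of the genes. ATP9A and ZNF117 lie close to the line, and KCNQ5 and NREP lie at negative values on both axes.

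The probe sets were compared next, because a gene's probe sets can read different transcripts. Of the 10 genes 5 had several single-gene probe sets and 5 had 1, giving 19 in all. For JAKMIP2 the second probe set read 2.59 to 2.77 in 3 groups and 4.78 in EVI1 TPA, with a difference in response of 1.84 ± 0.23 beside the 2.94 of the first. In ethanol its difference between the populations was 0.17 ± 0.16, where the first was called and did not overlap, so the higher value of JAKMIP2 in ethanol rests on 1 probe set. All 4 probe sets of ZNF117 were higher in EVI1 vector cells after TPA, by 2.47 to 3.04. The 3 others had differences in response of 0.97 ± 0.27, 1.06 ± 0.26 and 1.52 ± 0.25, all above the 0.49 ± 0.30 of the first. With the mean of the 4 probe sets in place of the first, the difference in response of ZNF117 was 1.01 and passed the threshold.

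For NREP 2 other probe sets had differences in response of 1.28 ± 0.27 and 0.52 ± 0.38, and the last, at 2.61 to 2.84 in all groups, 0.17 ± 0.15. The mean of the 4 gave 0.92, which did not pass. The second probe set of KCNQ5 stayed between 3.42 and 3.61 in all groups, below the background level, with TPA responses of -0.14 ± 0.11 in empty vector cells and -0.05 ± 0.11 in EVI1 vector cells. The second probe set of ATP9A read 4.88 in vec EtOH and 5.30 in EVI1 TPA, with a difference between the populations after TPA of 0.32 ± 0.14 against 1.83 ± 0.25 for the first. Results for KCNQ5 and ATP9A thus rest on 1 probe set each. A further probe set that names MB together with another gene read 4.70 to 5.18 on all arrays.

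**Figure D3:**
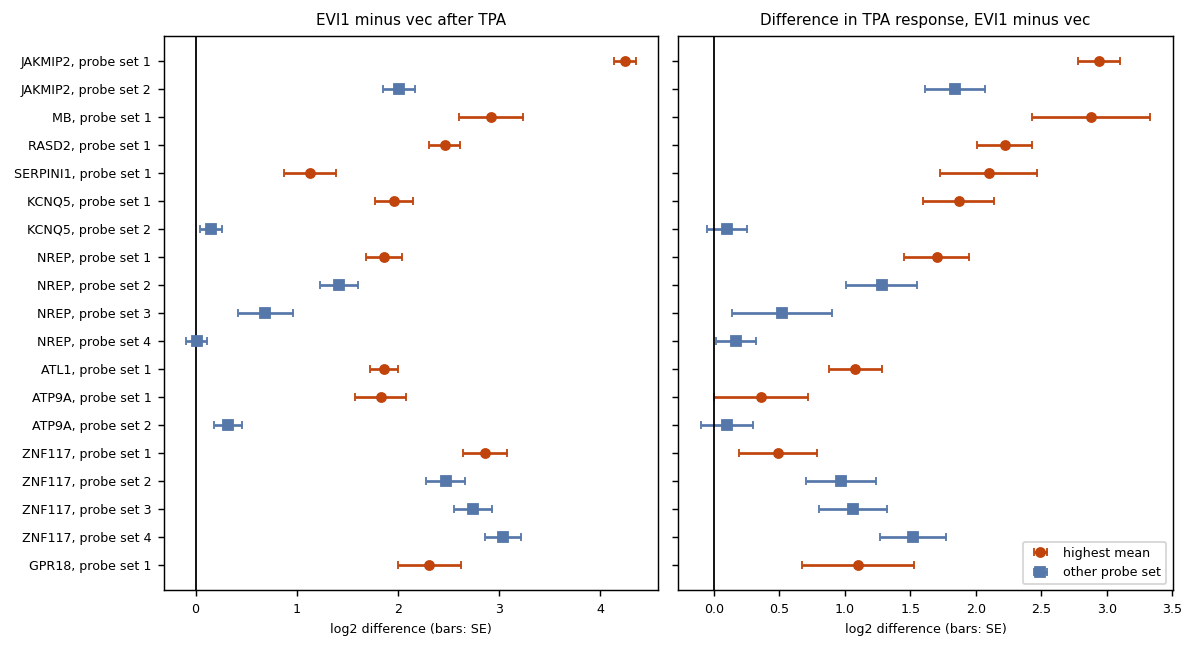
Difference between EVI1 and empty vector cells after TPA (left) and difference in TPA response (right), both log2 with SE bars, for the 19 single-gene probe sets; circles are the probe sets with the highest mean, squares the others. The 4 ZNF117 probe sets lie together at 2.47 to 3.04 on the left, while the second probe sets of KCNQ5 and ATP9A lie near 0 on both sides.

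To see whether relatives of the 10 genes behaved alike, 10 lists of family and pathway genes were read, with the members left out. Of 141 genes listed 128 were measured. In the averaged TPA effect 47 rose and 23 fell, where 23.6% of all genes rose and 24.4% fell. Their median was 0.09 beside 0.01 over all genes. In the difference in response 4 were higher in EVI1 vector cells and 6 lower, where 0.936% and 1.05% of all genes were. Their median there was -0.04. The same shares of all genes belong beside the counts of each list below.

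Of 8 genes listed with JAKMIP2, 3 rose with TPA and none fell. The kinases TYK2 (0.91 ± 0.07, adjusted p = 5.40e-08, limma) and JAK1 (0.77 ± 0.05, adjusted p = 1.19e-08, limma) rose, and the paralogues JAKMIP1 and JAKMIP3 stayed below 5 in every group. None had a called difference in TPA response. Of 14 measured globin and heme genes listed with MB, 5 rose and 2 fell. HMOX1, the heme-degrading enzyme whose gene lies near MB, rose by 4.19 ± 0.09 (adjusted p = 1.71e-13, limma) with a difference in response of -0.08 ± 0.18, and ALAS1, the first enzyme of heme synthesis, rose by 1.50 ± 0.06 (adjusted p = 4.05e-11, limma). FECH, the last enzyme of heme synthesis, fell by 0.28 ± 0.08 (adjusted p = 0.00992, limma), and BLVRA, a biliverdin reductase, fell by 0.21 ± 0.07 (adjusted p = 0.0254, limma). The other tissue globins, CYGB at -0.01 ± 0.09 and NGB at -0.00 ± 0.08, had no called TPA effect.

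Among 16 RAS-like GTPases listed with RASD2, 4 rose and 1 fell. RRAS rose by 1.24 ± 0.12 (adjusted p = 3.78e-07, limma) and RASL11B by 0.40 ± 0.06 (adjusted p = 4.78e-05, limma), MRAS fell by 0.35 ± 0.09 (adjusted p = 0.00563, limma), and the closest relative RASD1 was at 0.08 ± 0.09. No GTPase on the list had a called difference in response. Of 15 measured serpins and plasminogen activator genes listed with SERPINI1, 5 rose and 3 fell. PLAUR, the urokinase receptor, rose by 4.63 ± 0.08 (adjusted p = 2.19e-14, limma) and the protease inhibitor gene SERPINA1 by 2.79 ± 0.13 (adjusted p = 1.95e-10, limma), while SERPINB1 fell by 1.31 ± 0.08 (adjusted p = 5.21e-09, limma) and SERPINE2 fell by 2.18 ± 0.33 (adjusted p = 4.82e-05, limma). SERPINE2 changed by -3.34 ± 0.46 in empty vector cells and by -1.02 ± 0.46, not called, in EVI1 vector cells. Its difference in response, 2.32 ± 0.65, was not called either (adjusted p = 0.102, limma). Unlike SERPINI1, PLAUR responded less in EVI1 vector cells, by -0.77 ± 0.16 (adjusted p = 0.0271, limma), a call kept in 9 of 18 alternatives. PLAU, which encodes urokinase, responded more, by 0.52 ± 0.12 (adjusted p = 0.0491, limma), a call kept in 4 of 18. PLAT, the main target of neuroserpin, read 2.51 to 2.83 in all groups, below the background level.

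KCNE1, an accessory subunit of KCNQ channels, differed from KCNQ5 in direction. Its group means were 3.71 in vec EtOH, 7.75 in vec TPA, 3.65 in EVI1 EtOH and 9.33 in EVI1 TPA, an averaged rise of 4.86 ± 0.17 (adjusted p = 1.29e-11, limma). The difference in response was 1.63 ± 0.34 (adjusted p = 0.0277, limma) and was called in 9 of 17 alternatives. KCNE3 rose by 1.66 ± 0.08 (adjusted p = 3.76e-10, limma) without a called difference in response, and in all 3 of 6 measured genes on this list rose and none fell.

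The list for NREP, a protein linked to TGF-beta, held 14 measured genes of that pathway, of which 7 rose and 3 fell. TGFBR2, the type II receptor, rose by 2.91 ± 0.07 (adjusted p = 3.21e-13, limma) and SKIL, an inhibitor of SMAD signalling, by 2.88 ± 0.10 (adjusted p = 1.16e-11, limma), while TGFBR3 fell by 1.31 ± 0.08 (adjusted p = 2.45e-09, limma) and the ligand gene TGFB3 fell by 0.32 ± 0.06 (adjusted p = 4.42e-04, limma). This was the list with the most called differences in response, 1 higher and 3 lower in EVI1 vector cells. The latent TGF-beta binding protein genes LTBP1 and LTBP2 were lower by -1.88 ± 0.28 (adjusted p = 0.00401, limma) and -1.43 ± 0.24 (adjusted p = 0.00679, limma), calls kept in every alternative. TGFBR2 was lower by -0.72 ± 0.14 (adjusted p = 0.0158, limma) and lost the call without EVI1 EtOH replicate 3 alone (adjusted p = 0.0505, limma). SMAD3 was higher by 0.67 ± 0.14 (adjusted p = 0.025, limma), a call kept in 10 of 18. In ethanol LTBP1 was already lower in EVI1 vector cells, by -2.55 ± 0.20 (adjusted p = 2.14e-05, limma), where LTBP2 was at 0.05 ± 0.17.

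Of 13 measured genes that shape the endoplasmic reticulum with ATL1, 4 rose and 3 fell, and none differed in response. The reticulon gene RTN2 rose by 2.02 ± 0.09 (adjusted p = 1.24e-10, limma) and LNPK, a stabiliser of tubule junctions, by 1.47 ± 0.06 (adjusted p = 4.05e-11, limma), while REEP4 fell by 0.87 ± 0.07 (adjusted p = 4.49e-08, limma) and REEP6 fell by 0.29 ± 0.09 (adjusted p = 0.0146, limma). ATL3, the other measured atlastin, fell by 0.25 ± 0.07 (adjusted p = 0.00814, limma). Of 16 measured P4-ATPases and their partners, 9 rose and 2 fell, again with no called difference in response. ATP10D rose by 2.67 ± 0.09 (adjusted p = 6.54e-12, limma) and ATP11B by 0.97 ± 0.08 (adjusted p = 1.37e-07, limma), while ATP8B3 fell by 2.51 ± 0.13 (adjusted p = 5.83e-10, limma) and ATP8B4 fell by 0.38 ± 0.12 (adjusted p = 0.0135, limma). ATP9B, the closest relative of ATP9A, rose by 0.89 ± 0.09 (adjusted p = 6.57e-07, limma), and its difference between the populations was 0.00 in ethanol and -0.16 ± 0.12 after TPA.

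Of 17 measured lipid mediator receptors and lipoxygenase genes listed with GPR18, 7 rose and 1 fell. CMKLR1, the chemerin receptor, rose by 3.48 ± 0.08 (adjusted p = 3.33e-13, limma) and ALOX5AP, the partner of 5-lipoxygenase, by 2.07 ± 0.07 (adjusted p = 1.02e-11, limma), and the leukotriene receptor gene LTB4R fell by 0.59 ± 0.13 (adjusted p = 0.00156, limma). FPR1, a formyl peptide receptor, responded less in EVI1 vector cells, by -1.46 ± 0.24 (adjusted p = 0.00678, limma), as did GPR183, by -1.10 ± 0.18 (adjusted p = 0.00679, limma), and both calls were kept in all 18 alternatives.

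ZNF117 lies in a cluster of zinc finger genes on chromosome 7. Its list, with the corepressor gene TRIM28, had 9 measured genes, of which 8 fell with TPA and none rose, so ZNF117 rose while its neighbours of the same family fell. ZNF713, among the 8, had group means of 2.54 to 2.79, below the background level. ZNF107 fell by 2.23 ± 0.09 (adjusted p = 3.92e-11, limma) and ZNF273 by 1.93 ± 0.07 (adjusted p = 2.09e-11, limma), and TRIM28 fell by 1.76 ± 0.10 (adjusted p = 1.69e-09, limma). After TPA, 5 of the 9 were nevertheless higher in EVI1 vector cells and none lower, beside 5.9% and 5.3% of all genes. ZNF736 was higher by 1.15 ± 0.18 (adjusted p = 8.96e-04, limma), ZNF107 by 1.09 ± 0.12 (adjusted p = 7.60e-05, limma), ZNF138 by 1.01 ± 0.15 (adjusted p = 6.65e-04, limma), ZNF273 by 0.74 ± 0.10 (adjusted p = 2.95e-04, limma) and ZNF680 by 0.73 ± 0.15 (adjusted p = 0.00645, limma). These 5 calls were kept in all 18 alternatives and in the fit of the TPA groups alone. In ethanol none of the 9 was called, where ZNF117 was at 2.37 by its brightest probe set and at 1.50 to 1.69 by its others. ERV3-1, the gene next to ZNF117, read 3.81 to 4.01 in the 4 groups, below the background level. ZNF107 had the 1 called difference in response of the list, 0.77 ± 0.17 (adjusted p = 0.0405, limma), a call kept in 6 of 18 alternatives; the value was 0.14 with the mean of its probe sets.

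**Figure D4:**
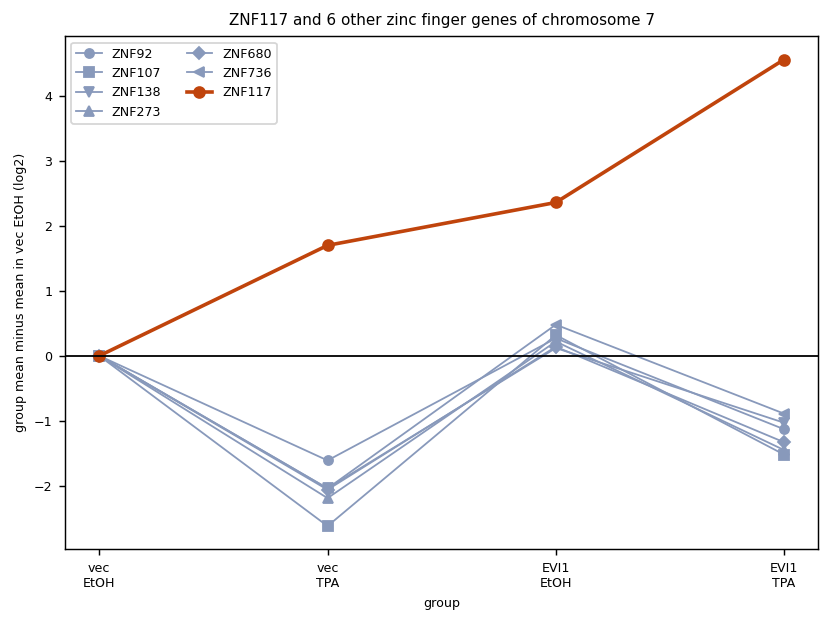
Group mean minus the mean in vec EtOH (log2) of ZNF117 (red) and 6 other zinc finger genes of chromosome 7 (blue) in the 4 groups; lines join the groups of a gene and have no meaning between them. ZNF117 is highest in EVI1 TPA, while the other 6 are lower with TPA in both populations and lie higher in EVI1 TPA than in vec TPA. For ZNF92 the difference after TPA, 0.48 ± 0.16, was not called. ZNF713, with means of 2.54 to 2.79, is not drawn.

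The genes next to the members were read to see how far along the chromosome a difference extended. Taking the 3 nearest measured genes on either side of each member gave 54 neighbours, of which 7 were higher and 3 lower in EVI1 vector cells after TPA, beside the 5.9% and 5.3% of all genes, with a median of 0.06. The calls of DPYSL3, EPB41L4A-AS1 and CDKL1 were lost when the TPA groups were fitted alone. In ethanol 1 was higher (GPR183) and none lower, beside 1.32% and 1.95% of all genes. RASD2 and MB are adjacent among the measured genes of chromosome 22, and the genes on their flanks were not called: MCM5, a replication helicase subunit, was at 0.27 ± 0.14 on the RASD2 side and APOL6 at 0.28 ± 0.16 on the MB side, with HMOX1 at 0.05 ± 0.13 beyond MCM5. Averaged over the populations HMOX1 rose with TPA by 4.19 ± 0.09, and MCM5 fell by 3.38 ± 0.10 (adjusted p = 1.69e-12, limma), opposite in direction to both RASD2 and MB.

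Beside JAKMIP2, the antisense gene JAKMIP2-AS1 was at -0.01 ± 0.15 and SPINK1 at 0.61 ± 0.10 (adjusted p = 8.67e-04, limma), the latter with group means of 2.65 to 3.62, below the background level. DPYSL3, the next gene but one, was lower by -0.96 ± 0.27 (adjusted p = 0.038, limma), a call kept in 9 of 18 alternatives. PDCD10 and LRRC77P, on either side of SERPINI1, were at 0.02 ± 0.08 and 0.19 ± 0.12. KHDC1L, next to KCNQ5, was lower by -1.12 ± 0.19 (adjusted p = 0.00144, limma), again below the background level in all groups, and RIMS1 on the other side was at 0.03 ± 0.09. STARD4, a sterol carrier gene next to NREP, was higher by 1.03 ± 0.15 (adjusted p = 5.48e-04, limma) but rose with TPA where NREP fell, by 1.31 ± 0.11 on average (adjusted p = 8.56e-08, limma), and EPB41L4A on the other side was at 0.06 ± 0.11. EPB41L4A-AS1 was higher by 0.40 ± 0.10 (adjusted p = 0.0225, limma), a call kept in 15 of 18.

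Around ATL1, MAP4K5 was at 0.03 ± 0.10 and SAV1 at -0.21 ± 0.26, CDKL1 was higher by 0.38 ± 0.11 (adjusted p = 0.0444, limma; kept in 7 of 18) and PYGL, the liver glycogen phosphorylase gene, lower by -0.69 ± 0.11 (adjusted p = 0.00122, limma). Beside ATP9A, NFATC2 was at 0.35 ± 0.13 and SALL4 at -0.09 ± 0.10. GPR18 lies beside GPR183, another G protein-coupled receptor, and the 2 were higher together in ethanol only. GPR183 was higher in EVI1 vector cells in ethanol by 0.72 ± 0.13 (adjusted p = 0.00562, limma) and at -0.37 ± 0.13 after TPA, where GPR18 was at 2.31 ± 0.31. UBAC2, on the other side of GPR18, was at 0.27 ± 0.10.

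**Figure D5:**
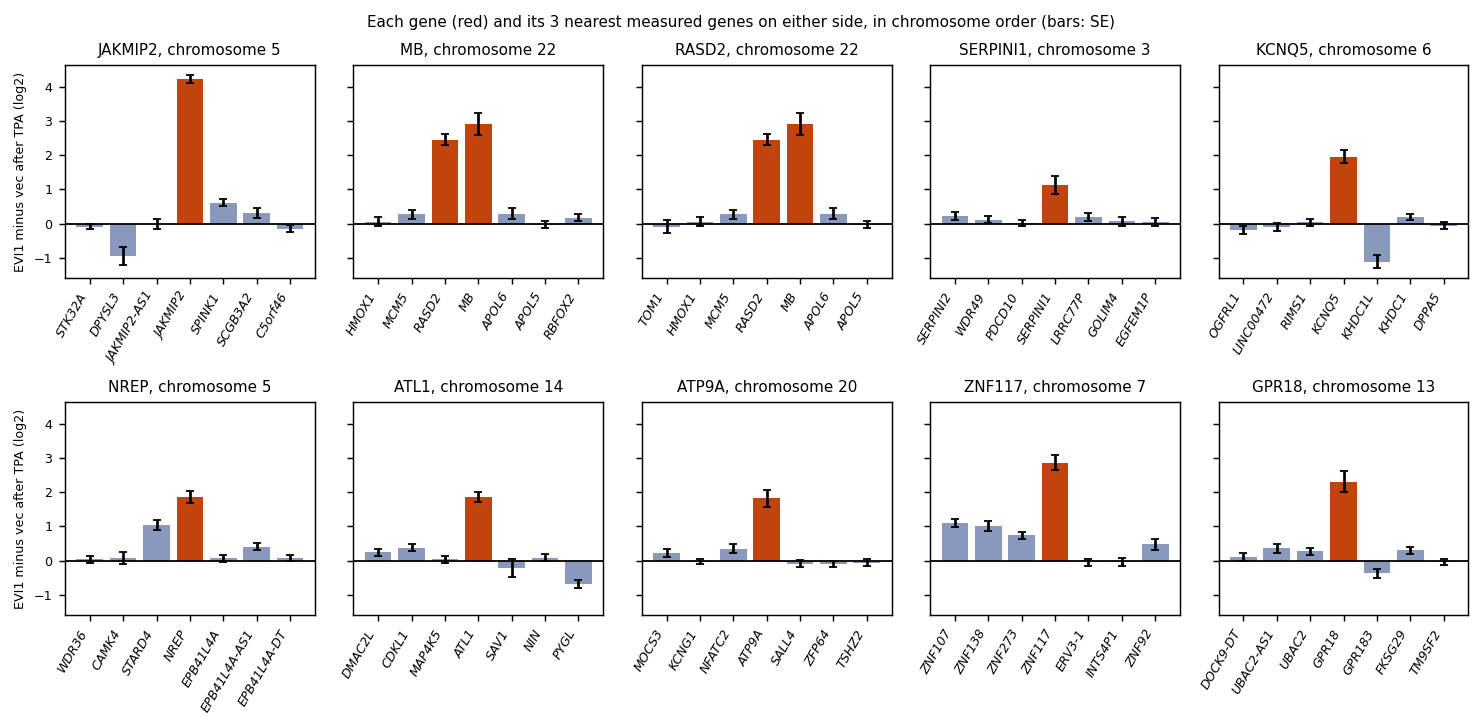
Difference between EVI1 and empty vector cells after TPA (log2, bars with SE) for each of the 10 genes (red) and its 3 nearest measured genes on either side (blue), in chromosome order. In every panel the member stands above the neighbours that are not members. RASD2 and MB appear side by side, both red, with MB at 2.92 above RASD2 at 2.46. ZNF107, ZNF138 and ZNF273 beside ZNF117 are higher by 0.74 to 1.09.

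Genes with the most similar values were found by Pearson correlation over the 12 arrays, among 3819 genes whose 4 group means spanned at least 1. The arrays fall into 4 groups, so a high r mostly reflects a like order of group means, and no test is attached. MB was most like MYOZ1, a gene of striated muscle (r = 0.998), then RBKS (0.991) and ITPKB (0.989). MYOZ1 had group means of 4.98, 6.17, 5.10 and 7.24 in vec EtOH, vec TPA, EVI1 EtOH and EVI1 TPA, a smaller range than that of MB. JAKMIP2 was most like ATL1 (0.983), AKR1C3 (0.970) and RASD2 (0.966), and RASD2 most like PHACTR1 (0.990), AKR1C3 (0.986) and PAQR8 (0.978). AKR1C3, an aldo-keto reductase of steroid and prostaglandin metabolism, had group means of 3.31, 3.87, 3.70 and 7.45 in the same order, high in EVI1 TPA alone.

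SERPINI1 was most like SUMF1 (0.994), UBE2F (0.992) and CD36 (0.991), the scavenger receptor gene. CD36 also had a lower mean in EVI1 EtOH than in vec EtOH, a difference not called for SERPINI1. Its means were 6.10 in vec EtOH, 5.18 in EVI1 EtOH, 11.08 in vec TPA and 12.29 in EVI1 TPA. KCNQ5 was most like CCNB2 (0.994), MAN1C1 (0.992) and ZNF138 (0.991), and NREP most like MAN1C1 (0.996), SEMA4D (0.990) and KCNQ5 (0.987). CCNB2, the mitotic cyclin B2, read 11.71 in both ethanol groups, 9.29 in vec TPA and 10.69 in EVI1 TPA.

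ATL1 was most like JAKMIP2 (0.983), FIS1 (0.960) and ADD3 (0.958). For ATP9A the 3 most similar genes were VPS50 (0.974), GATAD1 (0.969) and BET1 (0.968), which all lie on chromosome 7, while ATP9A is on chromosome 20. For ZNF117 they were ZKSCAN1 (0.983), PBDC1 (0.977) and SMIM30 (0.976), and for GPR18 FAM200A (0.928), HLA-DMA (0.919) and LMTK2 (0.915), again with 2 of 3 on chromosome 7 each. The 30 places were held by 28 distinct genes, of which 10, or 35.7%, were on chromosome 7, where 5.35% of the 3813 candidates with a known chromosome lie. No test is attached to this share. Those of ATP9A were higher in EVI1 vector cells in ethanol by 0.45 to 0.70 and after TPA by 0.56 to 0.75.

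Markers of cell types were read for the whole lists. Of 8 measured monocyte and macrophage markers, 5 rose and 2 fell with TPA, beside 23.6% and 24.4% of all genes. After TPA none was higher and 4 were lower in EVI1 vector cells, beside 5.9% and 5.3% of all genes. The log2 of their summed linear values ranged from 12.40 to 12.67 in vec TPA and from 11.72 to 12.24 in EVI1 TPA. The brightest marker, LYZ, weighs most in this sum. It read 11.58 in vec TPA and 11.23 in EVI1 TPA, a difference of -0.35 ± 0.15 that was not called. CD14 read 6.75 ± 0.51 in vec TPA and 5.05 ± 0.12 in EVI1 TPA and ITGAM 10.03 ± 0.35 and 8.52 ± 0.06 (SD, n = 3), opposite in direction to the 10 genes, and their part in the values of the 10 genes was not tested. Of 8 neuronal markers none passed the threshold between the populations after TPA, ELAVL4 coming nearest at 0.83 ± 0.25 (adjusted p = 0.0525, limma), and RBFOX3, the defining nuclear marker, read 5.31 to 5.66 in all groups. ELAVL4, an RNA-binding protein of neurons, was the 1 neuronal marker that rose with TPA, by 2.10 ± 0.18 on average, and TUBB3 was the 1 that fell, by 0.49 ± 0.10. For the 6 measured muscle markers the log2 of the summed linear values was 7.66 to 7.88 on all arrays. None passed in the averaged TPA effect, though MYH7 was called in empty vector cells (0.27 ± 0.09, adjusted p = 0.034, limma). CKM and ACTA1 stayed below the background level, while DES and MYOD1 read 5.93 to 6.21. Of the measured markers of other cells (5 for the erythroid lineage, 4 for megakaryocytes, 5 for lymphocytes, and 6 for epithelium or fibroblasts) none differed between the populations after TPA or in response.

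Array medians lay between 5.07 and 5.11. The gap between 3′ and 5′ control probe sets, a sign of RNA quality, was smaller after TPA in both populations for ACTB, where it ranged from 1.72 to 1.85 in vec EtOH and 1.73 to 2.01 in EVI1 EtOH, and from 1.17 to 1.64 in vec TPA and 1.23 to 1.29 in EVI1 TPA. For GAPDH it was 0.39 to 0.80 in vec EtOH and 0.36 to 0.61 in vec TPA, which overlapped, and 0.44 to 0.62 in EVI1 EtOH and 0.30 to 0.41 in EVI1 TPA, which did not. The 2 TPA groups overlapped in both measures, and its part in the results was not tested.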

How the data were processed

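Total RNA from 12 cultures of U937 cells was hybridised to Affymetrix U133 Plus 2.0 arrays, 250 ng per array per the labels' protocols. Per the submitters' processing notes, the authors made the deposited log2 expression values with RMA, using version 1.3 of Expression Console. This method subtracts background, gives the arrays one distribution and summarises the probes of a set, and a change shared by most genes is therefore not visible, while differences of dim genes are compressed. The sources used here do not say whether all 12 arrays went through normalization together. Arrays have no read depth, and their number, 3 per group, limits the precision.

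Of 54675 probe sets the platform annotation named 1 gene for 41097; 1801 had several genes and 11777 no gene. Those naming 1 gene entered the analysis. Each of 19775 genes was read from its brightest such probe set, and 19738 matched a RefSeq gene table used for chromosomes and gene order. Promoters of all 10 genes came from a RefSeq table on GRCh38.p14. Differences were fitted with limma (version 3.58.1, R version 4.3.3) as a means model of the 4 groups on all 12 arrays (8 residual and 5.22 prior degrees of freedom). Tests were two-sided, and p-values were adjusted by Benjamini-Hochberg over all genes, with 0.05 as the threshold. The median SE was 0.11 for 2 groups, 0.15 for the difference in response and 0.07 for the averaged effect. The script was tested on simulated data.

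The members, lists, neighbour rule and tests were chosen with earlier results of these data known. Of each related list the genes named were those called in the averaged TPA effect with the 2 largest rises and falls, those called in the difference in response, and close relatives of a member; neighbours named were the nearest on either side and those called. JAKMIP1, JAKMIP3, CYGB, NGB, RASD1, PLAT, ATL3, ATP9B and the single markers were named after their values were seen. Alternatives were 2 scalings, a filter on low genes, the mean of a gene's probe sets, an intensity trend, a replicate block, the compared groups alone and leaving out each array. Counts of alternatives that kept a call leave out the fit of the compared groups alone. As a check of pairing, arrays were centred on their group's mean and same-numbered ones correlated. The 2 TPA groups gave 0.415, 0.130 and 0.151, and every other pair of groups had at least 1 number that did not pass 0.1. EVI1 EtOH with EVI1 TPA gave 0.145, 0.091 and 0.208. No correlation of unlike-numbered arrays was computed for comparison, so this check cannot decide whether same-numbered arrays are pairs. The main fit did not use pairs, so the estimates, SE and p-values given for populations after TPA are unpaired. Pairs entered only in the replicate block, 1 of the alternatives.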

Additional observations from a re-analysis of the deposited data

Results flagged for a closer look

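The response to TPA differed between the populations, by the fit's own test of that difference, for 7 of the 10 genes, which were chosen by it, so these values are no independent result. They were 2.94 ± 0.15 for JAKMIP2, 2.88 ± 0.46 for MB, 2.22 ± 0.21 for RASD2, 2.10 ± 0.38 for SERPINI1, 1.87 ± 0.27 for KCNQ5, 1.70 ± 0.25 for NREP and 1.08 ± 0.20 for ATL1 (log2, EVI1 minus vec).

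It also differed for 10 related genes, by limma with adjustment over all genes. The response was more positive in EVI1 vector cells for KCNE1 (1.63 ± 0.34, adjusted p = 0.0277), ZNF107 (0.77 ± 0.17, adjusted p = 0.0405), SMAD3 (0.67 ± 0.14, adjusted p = 0.025) and PLAU (0.52 ± 0.12, adjusted p = 0.0491). It was more negative for LTBP1 (-1.88 ± 0.28, adjusted p = 0.00401), FPR1 (-1.46 ± 0.24, adjusted p = 0.00678), LTBP2 (-1.43 ± 0.24, adjusted p = 0.00679), GPR183 (-1.10 ± 0.18, adjusted p = 0.00679), PLAUR (-0.77 ± 0.16, adjusted p = 0.0271) and TGFBR2 (-0.72 ± 0.14, adjusted p = 0.0158).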

How the results depend on the processing

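Across the alternatives the count of the 10 genes called stayed between 7 and 9 for the averaged TPA effect, 5 and 7 for the difference in response, 8 and 10 after TPA, 7 and 9 for TPA in empty vector cells and 7 and 10 in EVI1 vector cells. In ethanol it was between 4 and 6, and 3 under the filter on low genes, which removed JAKMIP2 and ATL1 from the test. Related genes called in the difference in response numbered 10, and 5 to 13 when single arrays were left out; they were 5 without vec EtOH replicate 1, vec EtOH replicate 3 or EVI1 EtOH replicate 3, and 6 without vec TPA replicate 2 or 3 or EVI1 EtOH replicate 1 or 2, with the cause not tested. The averaged effect of GPR18, uncalled throughout, ranged from -0.08 to 0.23 without single arrays and was negative in 5 of these, at -0.01, -0.08, -0.03, -0.02 and -0.08. With the replicate block, which treats same-numbered arrays as pairs, 9 members were called in the averaged effect, 7 in the difference in response, 10 after TPA and 5 in ethanol, as without it; PLAU lost its difference in response (adjusted p = 0.053, limma). Scaling moved the median of all genes by at most 0.02 in size.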
